A study of Mus musculus with 6 samples.

Results

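Receptor genes through which the liver receives signals from catecholamines, peptide hormones, cytokines and growth factors were followed by RNA-Seq in livers of WT and TRIM24 C52/55A knockin mice, 3 of each. The 9 genes are *Adra1a*, *Adra1b*, *Adrb3*, *Gcgr*, *Avpr1a*, *Prlr*, *Lepr*, *Lifr* and *Egfr*, of 21528 genes listed in any library. They were chosen by name with the difference between these genotypes already known, and *Adrb3* was included for its rise. The difference between genotypes is therefore given for them as a description, without a test. All mice were labelled C57BL/6 (the study's methods give a C57Bl/6J background), were 5 months old, and had eaten a diet with 60% fat for 3 months (the HFD), with 1 library per mouse. In the knockin, 2 cysteines of TRIM24 that its E3-ligase activity needs are replaced by alanine in the germline, so every cell type of the liver carries the change. WT mice were littermates. No group on another diet was compared here.

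Expression was deposited as FPKM, the fragments of a gene scaled to transcript length and to library size, so levels can be compared between genes. FPKM hold no read counts, and the counting error behind a value is unknown. Libraries listed 17709 to 17984 genes above 0, and a gene that a library did not list was taken as 0. Of 7 hepatocyte markers listed, 5 could be analysed here (*Apoa1*, *Apob*, *Ttr*, *Hnf4a* and *Cps1*). All 5 were above 0 in every library, with a summed level of 12670 to 13280 FPKM in WT and 12460 to 14500 FPKM in knockin livers. Knockin replicate 2 stood apart in adipocyte markers, of which 9 of 11 were highest in that library. Summed markers of sinusoidal endothelium were at 89.4 to 94.9 FPKM in WT and 79.1 to 88.8 FPKM in the knockin, of Kupffer cells at 108 to 135 and 94.8 to 123 FPKM, of stellate cells at 42.6 to 48.8 and 41.3 to 52.6 FPKM, and of cholangiocytes at 28.5 to 53.8 and 21.8 to 33.9 FPKM. Of these lists the endothelial one did not overlap between genotypes, and neither did lymphocyte markers, at 4.06 to 5.08 FPKM in WT and 3.21 to 3.74 FPKM in the knockin. Of single genes tested, 28.9% did not overlap. The endothelial gap was narrow, at 89.4 against 88.8 FPKM. Of the 6 endothelial markers 5 were lower in the knockin, but only 3 after median-of-ratios scaling or quantile normalization. Of 4 pancreatic acinar markers 2 could be analysed here. *Cela1* had 3.502 to 8.26 FPKM in WT and 10.8 to 16.1 FPKM in the knockin, while *Cpa1* had 0.206 FPKM in WT replicate 3 and was not listed elsewhere. Single markers with an adjusted p under 0.05 by limma were *Lyve1* of sinusoidal endothelium, which fell (log2 difference -1.26), and *Cps1* of hepatocytes and the acinar *Cela1*, which rose (0.63 and 1.06). These calls were kept in 8, 8 and 6 of 14 alternatives, and all 3 were lost without WT replicate 1, without WT replicate 3, without knockin replicate 1 and without the filter on low values. The part of these cell types in the levels of the receptors was not tested. *Trim24* itself had 5.54, 4.85 and 5.96 FPKM in WT and 6.15, 4.31 and 8.46 FPKM in knockin replicates 1, 2 and 3. This level does not check the genotype labels, because the knockin exchanges codons and removes no part of the gene.

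These receptors belong to separate signalling families. The α1-adrenergic receptors ADRA1A and ADRA1B and the vasopressin receptor AVPR1A couple to Gq, raise calcium in hepatocytes and start glycogen breakdown. The glucagon receptor GCGR and the β3-adrenergic receptor ADRB3 couple to Gs and raise cAMP, and ADRB3 is best known from adipocytes. PRLR, LEPR and LIFR are class I cytokine receptors that signal through JAK kinases and STAT factors. They bind prolactin, leptin and leukaemia inhibitory factor, and LIFR pairs with gp130, the product of *Il6st*. EGFR is a receptor tyrosine kinase that drives the ERK cascade and is abundant on hepatocytes.

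*Adrb3*, *Lifr* and *Egfr* were higher in the knockin liver, *Adra1a* was lower, and in each case the livers of the 2 genotypes did not overlap. *Adra1b*, *Gcgr*, *Avpr1a*, *Prlr* and *Lepr* overlapped between genotypes. Groups that did not overlap were thus found for 4 of the 9 receptors, and for 28.9% of the 12225 genes whose mean reached 0.5 FPKM, a filter that all 9 receptors passed. Because the receptors were chosen on this contrast, nothing is read from their count.

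**Figure D1:**
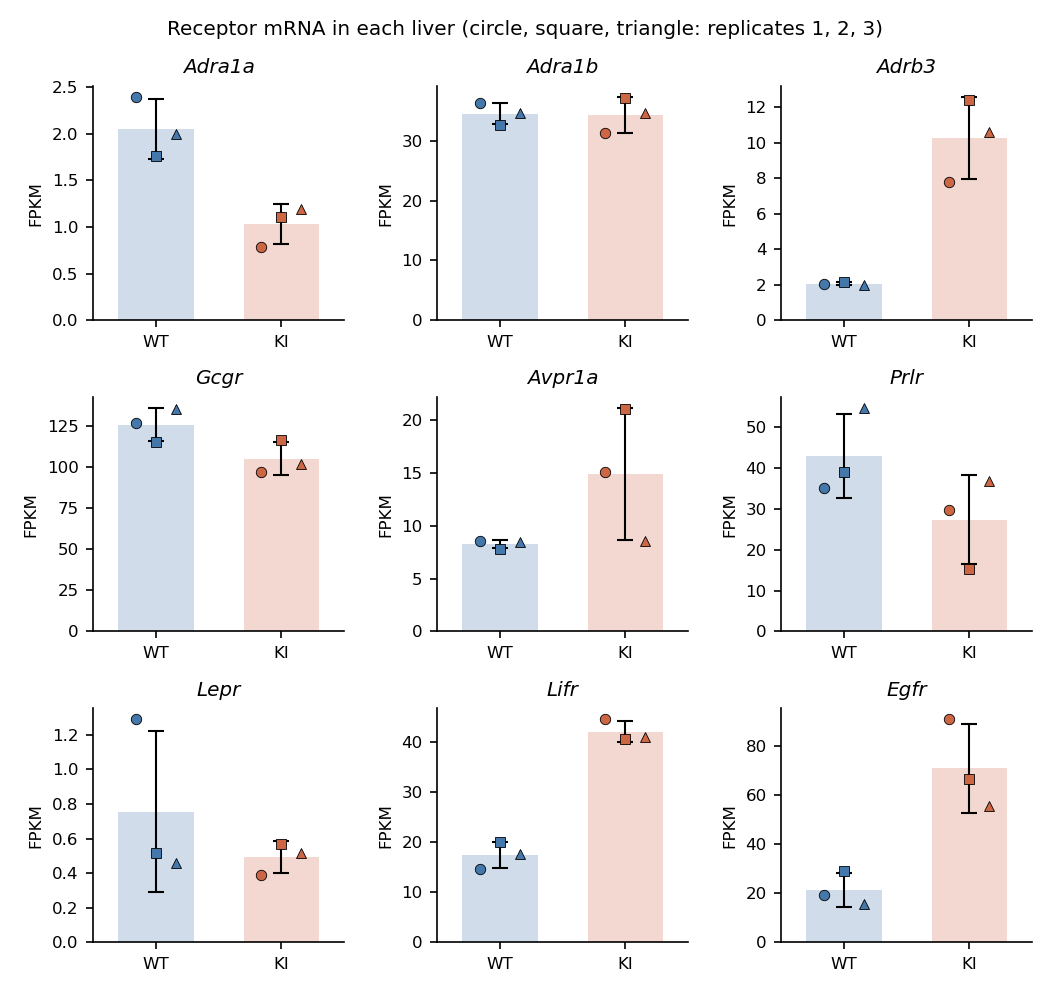
FPKM of the 9 receptor genes in each liver, with 1 panel per gene (KI, knockin). Points are single mice (circle, square and triangle for replicates 1, 2 and 3), bars are means of 3 mice and error bars are SD. The knockin points lie above the WT points for *Adrb3*, *Lifr* and *Egfr* and below them for *Adra1a*.

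*Adrb3* had 2.04, 2.17 and 1.99 FPKM in the WT livers and 7.81, 12.4 and 10.6 FPKM in the knockin livers. The WT livers were close together, and the lowest knockin liver was well above all of them. In bulk liver, a change in the number of cells of a type and a change in RNA per cell cannot be told apart, for *Adrb3* as for the other receptors. The mean went from 2.07 ± 0.0893 to 10.3 ± 2.31 FPKM (SD, n = 3 each), a ratio of 4.96. On the log2(FPKM + 1) scale, which understates the change of genes of low FPKM, the difference was 1.86 (standard error 0.15, 95% confidence interval 1.51 to 2.20). The gene is on chromosome 8 (27225776 to 27250616, - strand). Coordinates here and for the other receptors are those of the files, on GRCm38.

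*Adra1a*, on chromosome 14 (66635251 to 66733462, + strand), moved the other way. Its level was 2.39, 1.76 and 1.999 FPKM in WT and 0.787, 1.10 and 1.195 FPKM in knockin livers. All knockin livers were below the lowest WT liver. The mean was 2.05 ± 0.320 FPKM in WT and 1.03 ± 0.214 FPKM in the knockin (SD, n = 3 each), a log2 difference of -0.59 (standard error 0.13, interval -0.88 to -0.30). Over the 14 alternative settings the difference ranged from -0.94, with a pseudocount of 0.1, to -0.50, without knockin replicate 1. The files' interval of *Adra1a* spans 98.2 kb, against 135.9 kb in the GENCODE M21 annotation.

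*Adra1b* (chromosome 11, 43774606 to 43901210, - strand), the most abundant adrenergic receptor in both genotypes, had 36.3, 32.7 and 34.6 FPKM in WT and 31.2, 37.1 and 34.5 FPKM in knockin livers. The WT values lay within the range of the knockin values. The log2 difference was -0.01 (standard error 0.09, interval -0.21 to 0.19). Its sign depended on the scaling, with 0.09 after median-of-ratios scaling and 0.14 after quantile normalization.

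The make-up of adrenergic receptor mRNA differed between the genotypes, while the FPKM of its main component, *Adra1b*, overlapped. Of the summed FPKM of the 4 adrenergic receptor genes that passed the filter on low values (*Adra1a*, *Adra1b*, *Adra2b* and *Adrb3*), *Adrb3* made up 4.82%, 5.69% and 4.99% in the WT livers and 18.9%, 23.7% and 22.2% in the knockin livers. *Adra1b* held 85.9% ± 0.532 of the sum in WT and 72.9% ± 2.31 in the knockin (SD, n = 3 each), and *Adra1a* 5.08% ± 0.516 and 2.17% ± 0.305. In WT livers *Adrb3* and *Adra1a* were at similar levels, and the ratio of *Adrb3* to *Adra1a* was 0.855, 1.23 and 0.998. In knockin livers this ratio was 9.92, 11.2 and 8.86. The summed FPKM itself was 42.4, 38.1 and 40.01 in WT and 41.4, 52.4 and 47.8 in the knockin, and so overlapped. *Adra2b*, an α2-adrenergic receptor, had 1.55 ± 0.171 and 1.59 ± 0.135 FPKM (SD, n = 3 each) and a log2 difference of 0.02 (adjusted p = 0.929 from limma).

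**Figure D2:**
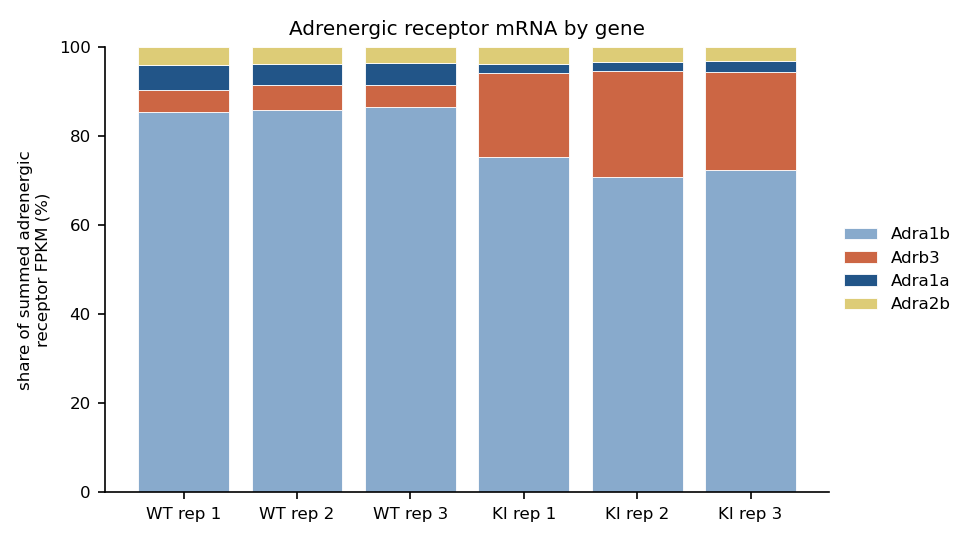
Share of each gene in the summed FPKM of the 4 adrenergic receptor genes that passed the filter (vertical axis, in %), with 1 stacked bar per liver. The *Adrb3* share is between 4.82% and 5.69% in WT livers and between 18.9% and 23.7% in knockin livers, and *Adra1b* is the largest share in all of them.

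Genes at the *Adrb3* locus are given beside it. The antisense gene *Gm45470* lies over *Adrb3* on the + strand, from 27228686 to 27240332 of chromosome 8. It had 0.354, 0.614 and 0.561 FPKM in WT and 2.90, 2.58 and 3.51 FPKM in knockin livers, a log2 difference of 1.40 (standard error 0.13). *Gm45470* was looked at because it lies over *Adrb3*, which was included for its rise, so no test of it is given. Exons of the genes share 839 bases, which are 24.9% of the exon bases of *Adrb3*, with none in its coding sequence, and 11.0% of those of *Gm45470*. Whether the libraries keep strand is not given in the sources used here. If they do not, reads of these genes in the shared stretch cannot be told apart. *Got1l1*, 1.9 kb away on the strand of *Adrb3*, was not listed in WT replicates 1 and 2 (taken as 0), had 0.0857 FPKM in WT replicate 3 and had 0.625, 0.375 and 1.93 FPKM in knockin livers. It passed the filter on low values only through the knockin livers, so no test of it is given. *Eif4ebp1*, on the other side at 9.7 kb, had a log2 difference of -0.06 (adjusted p = 0.791 from limma). These neighbours were looked at after the values of *Adrb3* had been seen.

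Adipocytes express *Adrb3*, and adipocyte markers were summed to 23.7, 26.9 and 19.1 FPKM in WT and 7.23, 65.8 and 9.51 FPKM in knockin livers. Only knockin replicate 2 stood above the WT libraries, and its *Adrb3* level of 12.4 FPKM was the highest. Of the defining markers, *Adipoq*, *Lep*, *Plin1* and *Retn* had 4.55, 3.98, 3.32 and 1.59 FPKM in that library and were not listed (taken as 0) in knockin replicates 1 and 3, where *Adrb3* was at 7.81 and 10.6 FPKM. The other 2 of the 11 markers were highest in WT livers. *Cfd* had 4.17, 8.62 and 3.10 FPKM in WT and 0.112, 2.54 and 0.821 FPKM in knockin livers, and *Cidea* 2.98, 0.590 and 2.12 against 0.128, 0.889 and 0.183 FPKM. Without knockin replicate 2 the log2 difference of *Adrb3* was 1.72 (standard error 0.13).

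**Figure D3:**
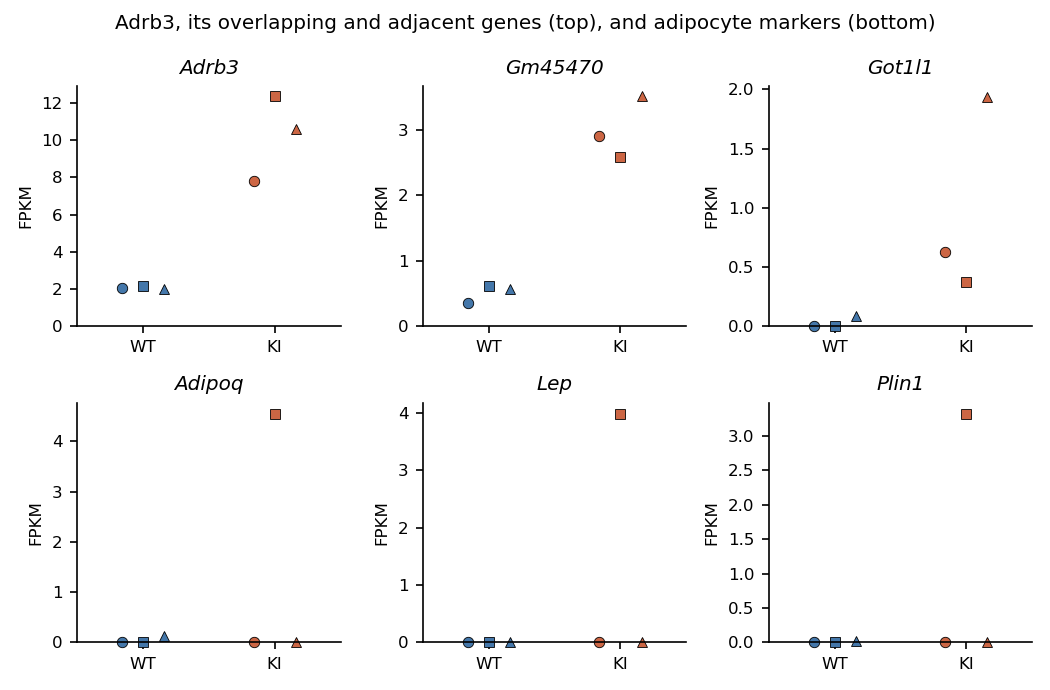
FPKM in each liver (circle, square and triangle for replicates 1, 2 and 3) of *Adrb3*, the antisense gene *Gm45470* over it and its neighbour *Got1l1* (top), and of the adipocyte markers *Adipoq*, *Lep* and *Plin1* (bottom). The top genes are higher in all 3 knockin livers, whereas the adipocyte markers stand out in knockin replicate 2 alone.

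Among receptors of peptide hormones, *Gcgr* (chromosome 11, 120526855 to 120538986, + strand) was the most abundant of the 9 genes in both genotypes. It had 127, 115 and 136 FPKM in WT and 96.9, 116 and 102 FPKM in knockin livers. Knockin replicate 2 lay within the WT range and the other knockin livers below it. The log2 difference was -0.26 (standard error 0.10, interval -0.48 to -0.04). After quantile normalization it was -0.10. The interval that the files give for *Gcgr* spans 12.1 kb, against 8.3 kb in the GENCODE M21 annotation, and holds the antisense gene *Gm11789*, which shares no exon bases with *Gcgr* and had 37.6, 30.1 and 33.5 FPKM in WT and 17.6, 16.6 and 20.6 FPKM in knockin livers (adjusted p = 0.00563 from limma).

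*Avpr1a* (chromosome 10, 122448499 to 122453453, + strand), the vasopressin receptor of hepatocytes, had 8.56, 7.83 and 8.47 FPKM in WT and 15.1, 21.0 and 8.51 FPKM in knockin livers. Knockin replicates 1 and 2 were above all WT livers, whereas replicate 3 lay among them. The log2 difference of 0.69 had a standard error of 0.26 and an interval of 0.10 to 1.29. It was 1.02 without knockin replicate 3 and 0.42 without knockin replicate 2.

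Of the 3 cytokine receptors among the 9 genes, *Lifr* (chromosome 15, 7129559 to 7197489, + strand) was the one whose genotypes did not overlap. The files' interval spans 67.9 kb, against 106.9 kb in the annotation. *Lifr* had 14.7, 19.96 and 17.6 FPKM in WT and 44.6, 40.7 and 41.0 FPKM in knockin livers. The knockin livers were close together, and the lowest of them was above the highest WT liver by more than the spread within either genotype. The mean went from 17.4 ± 2.64 to 42.1 ± 2.15 FPKM (SD, n = 3 each), a ratio of 2.42 and a log2 difference of 1.23 (standard error 0.11, interval 0.98 to 1.49). Its co-receptor gene *Il6st* had 25.3 ± 1.22 FPKM in WT and 27.9 ± 4.91 FPKM in the knockin (SD, n = 3 each), with an adjusted p of 0.636 from limma. *Osmr*, the nearest tested gene at lower coordinates and a receptor of the same family, had 1.09 ± 0.432 and 0.822 ± 0.169 FPKM (SD, n = 3 each; adjusted p = 0.546 from limma).

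*Prlr* (chromosome 15, 10177238 to 10410153, + strand) had 35.0, 39.1 and 54.7 FPKM in WT and 29.8, 15.4 and 36.9 FPKM in knockin livers. The mean was lower in the knockin, at 27.3 ± 10.9 against 42.9 ± 10.4 FPKM (SD, n = 3 each), but knockin replicate 3 was above WT replicate 1. The log2 difference of -0.69 (standard error 0.29, interval -1.37 to -0.02) ranged from -0.94 to -0.34 over the alternatives, and was nearest to 0 without knockin replicate 2. The files' interval of *Prlr* spans 232.9 kb against 171.9 kb in the annotation and reaches into *Agxt2*, which had 90.6 ± 1.95 and 72.5 ± 16.7 FPKM (SD, n = 3 each; adjusted p = 0.196 from limma).

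*Lepr* (chromosome 4, 101717404 to 101815352, + strand), the lowest of the 9 receptors, had 1.29, 0.517 and 0.459 FPKM in WT and 0.389, 0.568 and 0.519 FPKM in knockin livers. Only WT replicate 1 was above 1 FPKM, and the other livers of both genotypes were mixed in order. The log2 difference was -0.20 (standard error 0.18, interval -0.61 to 0.20), and 0.002 without WT replicate 1.

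*Egfr* (chromosome 11, 16752203 to 16918158, + strand) had 19.4, 29.0 and 15.6 FPKM in WT and 90.9, 66.4 and 55.6 FPKM in knockin livers. The lowest knockin liver was above the highest WT liver, although both groups spread more widely than for *Lifr*. The mean went from 21.3 ± 6.88 to 70.9 ± 18.1 FPKM (SD, n = 3 each), a ratio of 3.33 and a log2 difference of 1.70 (standard error 0.23, interval 1.16 to 2.24). *Egfr* and *Prlr* exchanged their order between the genotypes, with *Egfr* at 0.555, 0.741 and 0.285 times *Prlr* in the WT livers and 3.05, 4.31 and 1.51 times *Prlr* in the knockin livers.

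**Figure D4:**
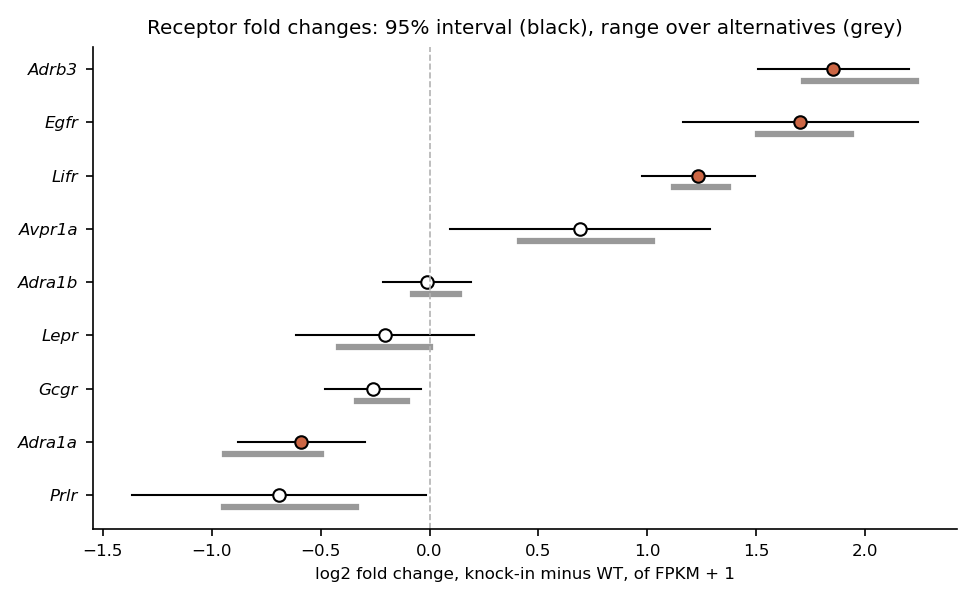
Difference in log2(FPKM + 1), knockin minus WT, of the 9 receptors (points, filled where the livers of the genotypes did not overlap), with the 95% confidence interval (black) and the range over the alternative settings (grey). *Adrb3* (1.86), *Egfr* (1.70) and *Lifr* (1.23) lie furthest to the right, and *Prlr* (-0.69) has the widest interval.

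The order of the receptors differed with genotype as follows. In WT livers *Gcgr* came first, followed by *Prlr* and *Adra1b*, *Egfr* and *Lifr*, *Avpr1a*, *Adrb3* and *Adra1a*, and *Lepr*. Ranges of *Prlr* and *Adra1b*, of *Egfr* and *Lifr*, and of *Adrb3* and *Adra1a* overlapped in WT. In knockin livers *Gcgr* was followed by *Egfr* and *Lifr*, with no overlap at either step. *Adra1b*, *Prlr*, *Avpr1a* and *Adrb3* came next, each overlapping with its neighbour in the order, then *Adra1a* and *Lepr*.

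Promoter sequences were available in the RefSeq table (GRCm38.p6) for 7 of the 9 receptors, in 12 windows from 250 bases before to 50 bases after a start, and *Adrb3* and *Adra1a* had no entry. The sequences of *Lifr* and *Egfr* are shown, as the receptors with entries whose livers did not overlap. Capitals mark GGGCGG (the GC box) on either strand, and the 250 bases before the start are printed 5′ to 3′ on the + strand. The *Lifr* stretch is chr15:7129322-7129571 and the *Egfr* stretch chr11:16751953-16752202.
Lifr: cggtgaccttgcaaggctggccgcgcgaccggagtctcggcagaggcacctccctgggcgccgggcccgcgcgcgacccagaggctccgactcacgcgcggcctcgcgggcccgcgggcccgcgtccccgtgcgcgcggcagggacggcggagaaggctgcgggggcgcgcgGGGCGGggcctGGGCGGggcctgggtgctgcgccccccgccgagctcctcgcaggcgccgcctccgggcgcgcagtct
Egfr: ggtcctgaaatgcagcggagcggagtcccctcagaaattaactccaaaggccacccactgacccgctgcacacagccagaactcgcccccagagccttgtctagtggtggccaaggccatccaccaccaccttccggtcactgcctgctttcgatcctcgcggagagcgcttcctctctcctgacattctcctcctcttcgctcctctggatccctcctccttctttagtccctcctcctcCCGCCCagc
GGGCGG was found at -78 and -67 from this *Lifr* start and at -9 from the *Egfr* start, and 35.7% of 32851 windows of this length hold it. Receptors whose genotypes overlapped held it too, *Adra1b* at -185 and 30 from 1 of its 2 starts, *Gcgr* at -77 and -51, and *Lepr* at -164 from 1 of its 2 starts. The second *Lifr* window, at a start further downstream (7140542), held none. GC content was 81.3% in the first and 53.3% in the second *Lifr* window and 62.3% in the *Egfr* window, against a median of 52.7% over all windows. The STAT motif TTCNNNGAA, held by 8.30% of all windows, matched in 1 of the 12, as TTCTAGGAA at -110 from a start of *Prlr*. TGACGTCA, the cAMP response element, matched in none of the 12 windows and in 1.79% of all. TATAAA, present in 13.6% of all windows, matched at -137 in *Avpr1a*.

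The genes most alike each receptor over the 6 livers were ranked by Pearson's r of log2(FPKM + 1), as a description of 6 points that share the genotype contrast. For *Adrb3* these were *Kcnk1* (r = 0.997), *Mpp4* (0.996) and *Tmem261* (0.990). *Kcnk1* had 0.222, 0.236 and 0.131 FPKM in WT and passed the filter on low values only through the knockin livers. *Lifr* was closest to *Ctdspl2*, *Selenbp2* and *Serpina1e*, each with r = 0.991, and *Egfr* to *Nup155* (r = 0.994), *Cfhr2* (0.990) and *Mbtd1* (0.990). *Adra1a* was closest to *Uqcrc2*, *Tkfc* and *Ddx1*, each with r of 0.994 or 0.995, and had 305 genes with r over 0.95. *Lepr* had 16 such genes, *Avpr1a* 33, *Adra1b* 38, *Prlr* 56, *Adrb3* 70, *Egfr* 82, *Lifr* 105 and *Gcgr* 249.

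*Egfr* is known to be higher in the liver of male than of female mice, and *Prlr* higher in females. Genes known for male-biased expression in liver were looked at after values had been seen, so that their count tests nothing. All 10 of them had a higher mean in the knockin, with a median log2 difference of 1.61. *Selenbp2* had 17.1, 34.9 and 15.5 FPKM in WT and 783, 593 and 680 FPKM in knockin livers, and *Cyp7b1*, an oxysterol hydroxylase, 53.8, 58.7 and 45.0 against 300, 185 and 152 FPKM. Of 10 female-biased genes chosen with them 4 could be compared, 2 higher and 2 lower in the knockin, and *Cyp17a1* had 24.8, 18.0 and 17.1 FPKM in WT and 0.999, 1.53 and 2.70 FPKM in knockin livers. The Y-linked genes *Ddx3y*, *Eif2s3y*, *Kdm5d* and *Uty* were at 1.33 FPKM or above in each of the 6 livers, so that male RNA was present in all. The study's captions give male mice for liver triglyceride and protein levels of this line on the HFD, and no sex in the RNA-Seq caption. The part of this sex-biased set in the levels of the receptors was not tested.

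Other receptors of the same families were taken from lists of adrenergic, hormone, cytokine and tyrosine kinase receptors. These lists, and those of ligands, signalling genes and CREB targets below, were chosen with earlier results of these data known. Of 68 tested, 4 changed (limma, adjusted p under 0.05 with Benjamini-Hochberg adjustment over all genes), or 5.88%. Over all genes tested 7.72% did, 1.64% higher and 6.09% lower in the knockin. Of the 4, 1 was higher and 3 were lower. Without knockin replicate 2 the count of the 68 that changed was 6 in total. The count was 2 without WT replicate 2, and 1 without WT replicate 3, without knockin replicate 1 or without the filter. The median log2 difference of the 68 was -0.08, as was that of all genes tested. The median of all genes changed sign with the scaling, at 0.006 after median-of-ratios scaling and 0.01 after quantile normalization, and list medians near it are read relative to it. *Adora1*, the A1 adenosine receptor, fell from 9.33 ± 1.84 to 1.90 ± 0.760 FPKM (SD, n = 3 each; log2 difference -1.85, adjusted p = 0.00257 from limma). *P2ry2*, a Gq-coupled receptor for ATP, fell from 3.96 ± 0.339 to 2.68 ± 0.273 FPKM (SD, n = 3 each; adjusted p = 0.0467 from limma). Of 25 other receptor tyrosine kinases, *Fgfr1* rose (log2 difference 0.77, adjusted p = 0.0136 from limma) and *Kit* fell (-0.53, adjusted p = 0.0352 from limma). *Erbb3*, a partner of EGFR, had 22.8 ± 3.43 and 28.9 ± 3.77 FPKM (SD, n = 3 each; adjusted p = 0.177 from limma). None of 25 other cytokine receptors passed the test. Before adjustment 5 of them were under 0.05 by limma, as were 2883 of all 12225 genes tested. *Ghr*, the growth hormone receptor, had 186 ± 11.5 and 188 ± 16.2 FPKM (SD, n = 3 each).

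Of 16 ligands of the 9 receptors, 5 passed the filter on low values, *Lep* only through knockin replicate 2, where the adipocyte markers stood out. None of the other 4 passed the test by limma. Before adjustment 2 of the 4 were under 0.05, as were 2883 of all 12225 genes tested. *Tgfa*, a ligand of EGFR, had 4.37 ± 0.257 and 5.34 ± 0.538 FPKM, and *Ctf1*, a ligand of LIFR, 4.25 ± 0.403 and 2.89 ± 0.527 FPKM (SD, n = 3 each). Both had groups that did not overlap, as did 28.9% of all genes, with adjusted p-values of 0.206 and 0.0729 from limma.

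Downstream of the receptors, 6 of 114 signalling genes tested passed the test, or 5.26% against 7.72% of all genes, with 1 higher and 5 lower and a median log2 difference of -0.08. On the Gs and cAMP arm, used by *Gcgr* and *Adrb3*, 3 of 31 changed, or 9.68%, which is near the share of all genes. *Gnas*, which encodes Gs itself, fell from 178.5 ± 6.08 to 132 ± 14.8 FPKM (SD, n = 3 each; log2 difference -0.43, adjusted p = 0.0305 from limma). *Adcy6*, an adenylyl cyclase, fell by 0.66 on the log2 scale (adjusted p = 0.00941 from limma). *Rapgef4*, the cAMP sensor EPAC2, rose by 0.59 (adjusted p = 0.0222 from limma).

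Among 13 tested targets of CREB, the factor that cAMP activates, *Per1* fell (log2 difference -1.04, adjusted p = 0.0268 from limma) and *Irs2* rose (0.76, adjusted p = 0.0373 from limma). The 2 are 15.4% of the list, against 7.72% of all genes. Nothing is read from this share, as the list was chosen with earlier results known. None was called without WT replicate 3, without knockin replicate 1 or without the filter, and 4 with the replicate block. The median difference was -0.49 and 12 of the 13 were below 0, as were 8005 of all 12225 genes tested, whose median was -0.08. The list's median rested in part on single livers, with -0.21 without WT replicate 2, -0.27 without knockin replicate 3 (9 of 13 below 0 in each) and -0.76 without WT replicate 1. *Pck1* and *Tat*, which serve gluconeogenesis and tyrosine breakdown, had 878 ± 74.8 and 786 ± 333 FPKM and 620 ± 123 and 417 ± 120 FPKM (SD, n = 3 each; adjusted p = 0.638 and 0.1402 from limma). *Per1* is also a clock gene, and of 16 clock genes, looked at after values had been seen, 3 had an adjusted p under 0.05, all lower, where 6.09% of all genes were called lower. Nothing is read from this count, since the list was chosen late. The time of day of collection is not given in the sources used here.

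On the Gq and glycogen arm of *Adra1a*, *Adra1b* and *Avpr1a*, 2 of 30 genes fell, or 6.67% against 6.09% of all genes. *Rgs16*, which shortens Gq and Gi signals, had 62.9, 36.2 and 24.9 FPKM in WT and 4.78, 10.7 and 7.84 FPKM in knockin livers (log2 difference -2.23, adjusted p = 0.00965 from limma). *Gys2*, the liver glycogen synthase, fell by 0.33 (adjusted p = 0.0430 from limma). Of 23 JAK, STAT and SOCS genes none passed the test by limma. Before adjustment 4 of the 23 were under 0.05, as were 2883 of all 12225 genes tested. *Socs2* and *Cish*, feedback genes of cytokine receptors, spread widely among the knockin livers, with 4.16, 1.67 and 18.7 FPKM for *Socs2* and 1.27, 0.939 and 19.8 FPKM for *Cish*. On the EGFR and ERK arm *Map2k1*, the kinase MEK1, was the only 1 of 30 that passed (3.33%), with a fall of 0.29 (adjusted p = 0.0463 from limma). *Errfi1*, a feedback inhibitor of EGFR, had 489 ± 62.3 and 337 ± 75.3 FPKM (SD, n = 3 each; adjusted p = 0.0894 from limma). Of these calls, those of *Adora1* and *Adcy6* were kept in all 14 alternatives, *Rgs16* in 13, *Fgfr1* in 11, *Rapgef4* in 10, *Per1* and *Irs2* in 9, *P2ry2*, *Kit* and *Gnas* in 5, *Gys2* in 4 and *Map2k1* in 3, with the direction kept throughout.

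**Figure D5:**
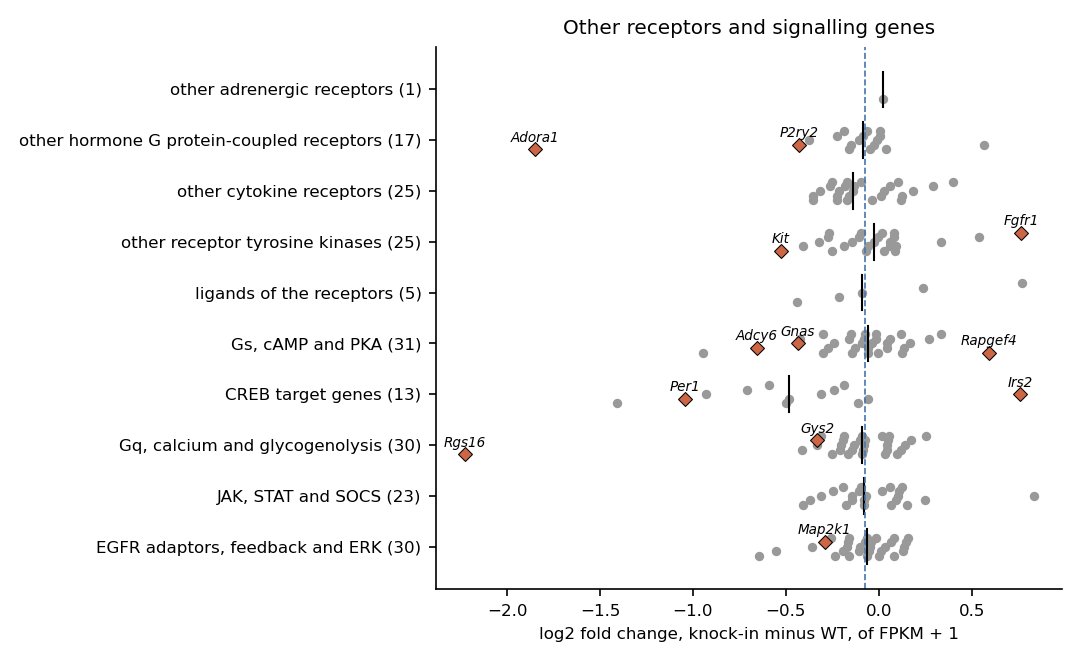
Difference in log2(FPKM + 1), knockin minus WT, of each tested gene (points) in the lists of other receptors, ligands and signalling genes, with the number tested in brackets. Diamonds mark an adjusted p under 0.05 by limma, black ticks are list medians and the dashed line is the median of all genes tested (-0.08, above 0 after median-of-ratios or quantile scaling), near which the medians of most lists lie, the CREB targets being at -0.49.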

How the data were processed

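Liver RNA of 6 mice on the HFD, 3 WT and 3 TRIM24 C52/55A, was sequenced. Values are FPKM as deposited by the authors, in a table for each mouse. The submitters' processing notes name bcl2fastq, Salmon 0.14.0, DESeq2 1.30.0 and GRCm38 without a role for each, and an RNA-Seq test is not given in the sources used here. Groups were taken from the labels. No libraries held identical values. Genes whose mean reached 0.5 FPKM entered a limma 3.58.1 fit of log2(FPKM + 1) (R 4.3.3, two-sided, eBayes moderated with a trend on mean level) and Benjamini-Hochberg adjustment over all genes. The fit was tested on simulated data. Tables and figures used Python 3.11.15, pandas 2.3.3, numpy 2.4.6 and matplotlib 3.10.9. The receptors and lists were chosen with earlier results of these data known. Named genes are the 9 receptors, from each list the called genes and tested genes of highest FPKM, of which a selection is printed, and for each receptor the 3 most correlated genes. *Erbb3*, *Errfi1*, *Socs2*, *Cish*, *Tgfa*, *Ctf1*, neighbouring genes, clock genes and sex-biased genes were picked after values were seen. Alternatives were pseudocount 0.1, no filter, a minimum mean of 1 FPKM, TPM, median-of-ratios and quantile scaling, no trend, the replicate block, and each replicate left out.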

Additional observations from a re-analysis of the deposited data

How the results depend on the processing

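Over the 14 alternatives the log2 differences of *Adrb3*, *Lifr* and *Egfr* ranged from 1.72 to 2.23, 1.12 to 1.37 and 1.51 to 1.94, given as values without a test. With a pseudocount of 0.1 the difference was 2.23 for *Adrb3* and -0.94 for *Adra1a*. Quantile normalization gave 0.14 for *Adra1b* and -0.10 for *Gcgr*. Of all genes, 944 were called, 347 without a filter, 1555 with TPM and 578 with the replicate block, and 296 to 1272 with 1 replicate left out (296 without knockin replicate 1, and 313, 480 and 301 without WT replicates 1, 2 and 3). Higher and lower genes numbered 200 and 744, but 197 and 1358 with TPM, 249 and 411 with median-of-ratios and 255 and 378 with quantile scaling. Of other receptors, against 4, 1 was called without a filter and 2 with median-of-ratios scaling, quantile normalization or the replicate block, and 1 to 6 with a replicate left out (2 without WT replicate 2, and 1 without WT replicate 3 or knockin replicate 1). Of signalling genes, against 6, 1 was called without a filter, 13 with TPM, 3 with quantile normalization and 3 without the trend, and 2 to 6 with a replicate left out (3 without WT replicate 1 or 2, and 2 without WT replicate 3 or knockin replicate 1). Of CREB targets, against 2, 0 were called without a filter, 4 with the replicate block, and 0 to 3 with a replicate left out (0 without WT replicate 3 or knockin replicate 1). Of ligands, against 0, 1 was called with TPM, and 0 to 1 with a replicate left out (1 without knockin replicate 2). Deviations of same-numbered livers correlated at -0.12, -0.10 and 0.003, and those of other pairs across genotypes at -0.05 to 0.14. With values this close, the check cannot decide whether the replicate numbers pair mice. The causes of these shifts were not tested. There were 3 mice per group, and without counts the counting error of low genes such as *Lepr* is unknown.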
